A study of Rattus norvegicus with 12 samples.

Results

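Selenoproteins carry selenium as the amino acid selenocysteine. The genes described here are some of the selenoproteins outside the glutathione peroxidase and thioredoxin reductase families, together with a factor that inserts selenocysteine. They were measured in CRI-G1, an insulin-secreting cell line from a rat islet cell tumour. The members were taken by name: every probe set of the array whose only gene symbol is Selenop, Selenow, Selenos, Selenok, Selenom, Selenof, Selenot, Sephs2, Secisbp2 or Msrb1. These 10 genes had 12 probe sets among the 31099 on the array, and 14218 genes had a single symbol. Selenop and Selenot had 2 probe sets and the other members 1 each. The list was selected on measured values in part, since the names were proposed with the signal differences between CRI-G1-RS and CRI-G1-RR on these arrays known, so the differences of the members between the lines are given as a description. A call of a member below only states on which side of the threshold it fell, and no p is given for it. The lists of related genes were also drawn up with earlier results of these data known. The adjusted p-values printed for their genes are therefore descriptions and not independent tests.

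The study set CRI-G1-RS, a rotenone-sensitive line, against CRI-G1-RR, the rotenone-resistant line, to look for genes behind their unlike response to mitochondrial poisons. CRI-G1-RR is the original clone. CRI-G1-RS is a single subclone that arose from it in long culture and was frozen as a line of its own, so a difference between the lines is that of 1 subclone. Both were untreated and grown in high glucose DMEM with fetal bovine serum, and the labels give 6 passages of each line, collected in pairs. Total RNA of each passage was amplified and labelled with biotin, and the labelled product was hybridized to an Affymetrix rat expression array. This gave 12 arrays, 6 per line.

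Selenocysteine is placed at a UGA codon, which would otherwise end translation. A stem-loop in the untranslated tail of the mRNA marks such a codon, and a binding protein (Secisbp2) and a dedicated elongation factor (Eefsec) bring in the charged tRNA. The selenium donor for that tRNA is selenophosphate, made by Sephs2, itself a selenoprotein. Several other members sit in the endoplasmic reticulum (ER), where insulin is folded and where misfolded proteins are pulled out for degradation. Selenoprotein P (Selenop) is secreted and carries selenium between tissues.

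The values were linear signals without a unit, from 0.0271 to 11366.1, and the mean signal after trimming 2% of the values lay between 250.068 and 250.075 on every array. Log2 fold changes are CRI-G1-RS minus CRI-G1-RR, taken from limma on quantile-normalized log2(signal + 16), and "called" means an adjusted p under 0.05 over all probe sets. The added 16 understates changes of dim probe sets. Means ± SD were taken over the deposited signals, and the signals of different probe sets cannot be set against each other. Pearson correlations of log2(signal + 16) between arrays were 0.978 to 0.987 within RS cells, 0.979 to 0.987 within RR cells and 0.952 to 0.965 between the lines. The summed signal of 8 measured endocrine islet markers was 19329 to 21770.1 on RS arrays and 15322 to 17369.9 on RR arrays. Ins1, the largest part of that sum, averaged 6495 in RS cells and 7118 in RR cells. Ins1 (log2 fold change -0.06) and Iapp (0.28) were not called, and the other markers in the sum were called higher in RS cells. The summed signal of Gcg, Sst and Ppy, other islet hormones, was 5997 to 7585 on RS arrays and 6879 to 7806 on RR arrays. Nearly all of the latter sum was Gcg, which averaged 6589 in RS cells and 7329 in RR cells. Sst (17.2 and 22.4) and Ppy (7.4 and 6.9) were dim in both lines. No probe set chosen for acinar, fibroblast, leukocyte or endothelial markers exceeded a signal of 71.1. Since whole cultures were lysed, fewer cells of a type and less RNA per cell cannot be told apart.

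**Figure D1:**
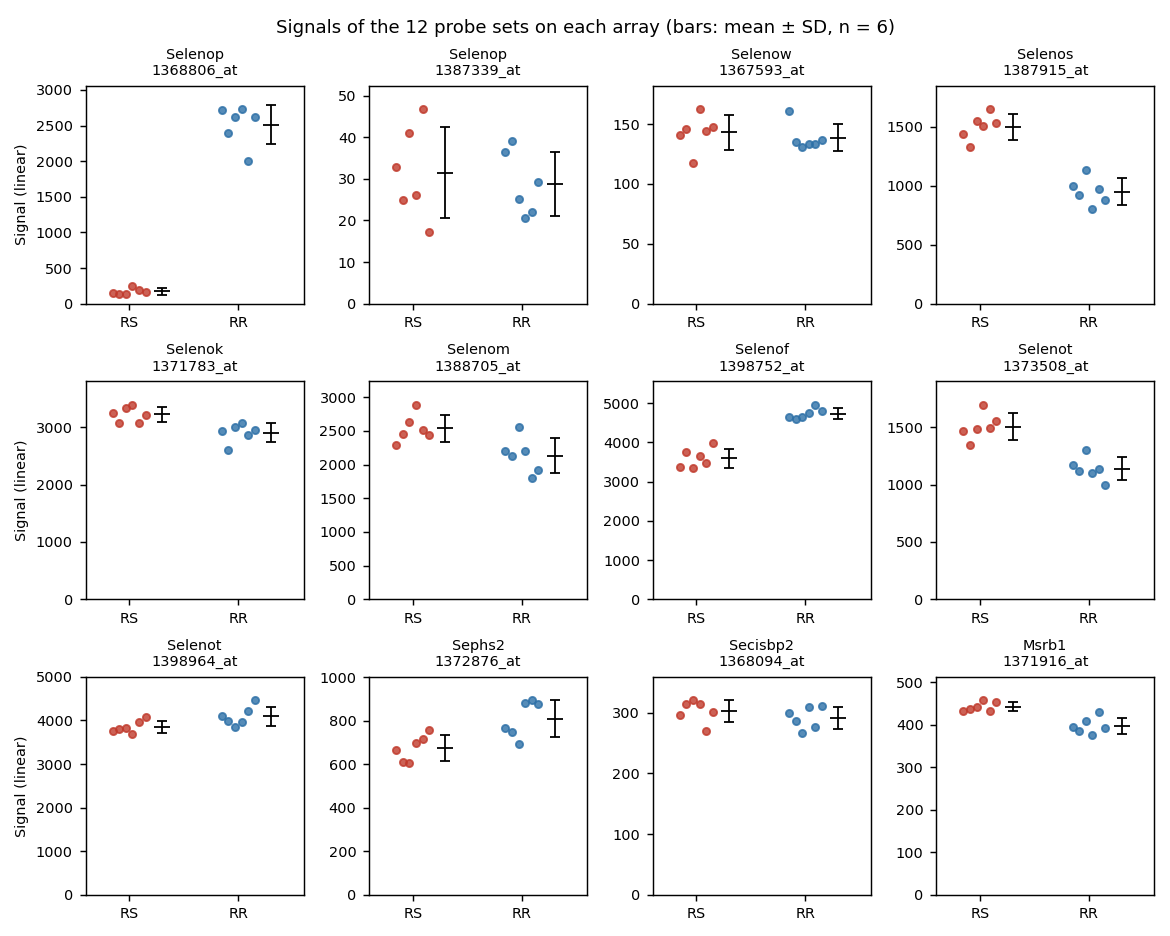
Signal (linear, no unit, each y axis from 0) of the 12 probe sets of the 10 genes on each array, with RS arrays in red at the left and RR arrays in blue at the right of each panel. Bars are mean ± SD (n = 6). The Selenop probe set 1368806_at lies between 134 and 252 on RS arrays and between 2010.0 and 2732 on RR arrays, while the other Selenop probe set lies under 46.9 on every array.

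The members did not move together. Selenop was far lower in RS cells, and Selenof and Sephs2 were lower by much less. Selenos, Selenot, Selenom, Selenok and Msrb1 were higher. For Selenop and Selenot this held for only 1 of their 2 probe sets. Selenow and Secisbp2 showed no call. Of the 12 probe sets 8 were called (66.7%), 5 higher and 3 lower in RS cells, where over the whole array 31.7% were called, 16.3% higher and 15.4% lower. With each array only scaled as deposited, in place of quantile normalization, the split of the members was 2 higher and 3 lower. With 1 probe set per gene, the one with the highest mean signal, 7 of 10 members were called, 4 higher and 3 lower, against 39.2% of all genes, 21% higher and 18.3% lower. Among genes placed on the genome and averaging 100 or more in signal, as these members did, the share was 53.9%. Because the contrast was known when the genes were proposed, nothing is read from these counts. The median log2 fold change of the members was 0.05, and that of all probe sets 0.01.

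In 5 of the 12 probe sets the deposited signals of the lines did not overlap, which held for 20.3% of all probe sets. RS arrays lay above RR arrays for Selenos, Selenot (1373508_at) and Msrb1, and below them for Selenop (1368806_at) and Selenof. Among arrays of 1 line, the coefficient of variation in RS cells was between 2.52% for Msrb1 and 34.7% for the dim Selenop probe set, and in RR cells between 2.87% for Selenof and 26.7% for that same Selenop probe set.

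**Figure D2:**
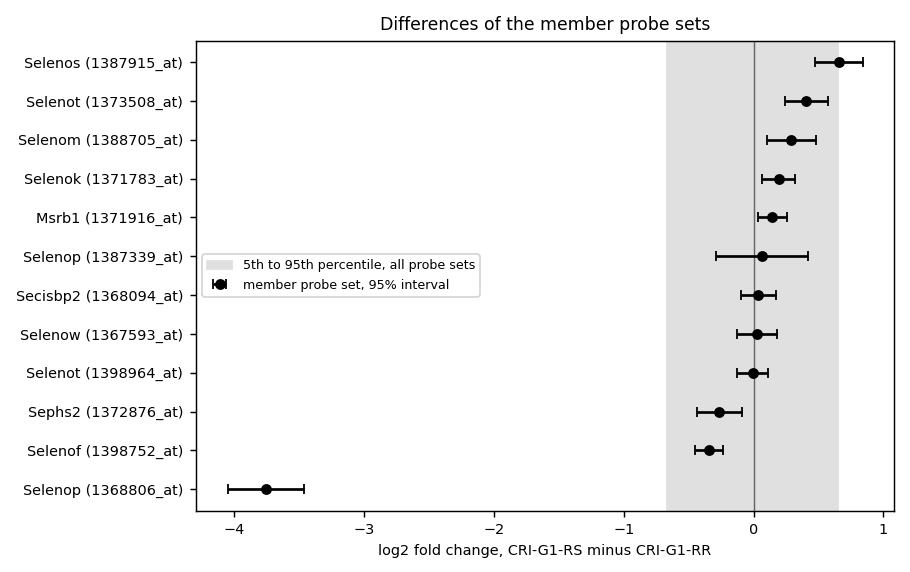
Log2 fold change (x axis, CRI-G1-RS minus CRI-G1-RR) of each of the 12 probe sets, with its 95% interval from limma. The grey band is the 5th to 95th percentile of all 31099 probe sets, from -0.67 to 0.65, and Selenop 1368806_at, at -3.76, lies far outside it on the left while Selenos, at 0.66, lies at its right edge.

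Selenium transport came first among the members by size of change. Selenop 1368806_at, whose target is an expressed sequence tag, had signals of 134, 156 and 252 (lowest, median and highest) on RS arrays, against 2010.0, 2617 and 2732 on RR arrays. Every RR array thus lay several times above the highest RS array. The signal averaged 172 ± 44.3 in RS cells and 2515 ± 274 in RR cells (SD, n = 6 each), so that the RR mean was 14.6 times the RS mean. The log2 fold change was -3.76 (standard error 0.14, 95% interval -4.05 to -3.47). In RS cells replicate 4, at 252, and replicate 5, at 194, lay above the others. In RR cells replicate 5, at 2010.0, was the lowest.

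The other Selenop probe set, 1387339_at, was designed on a reference mRNA and did not show this difference. Its signals were 17.3, 29.5 and 46.8 on RS arrays, against 20.5, 27.2 and 39.2 on RR arrays, so that the lines overlapped over nearly their whole range. Its log2 fold change was 0.06 (standard error 0.16, 95% interval -0.29 to 0.42). These signals are close to the added 16, a range in which this scale can show little. Over the 12 arrays, the Pearson correlation between both probe sets was -0.11. Where each of them lies on the Selenop transcript is not given in the annotation used here, so the Selenop result rests on 1 probe set of 2.

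Selenop has a pair of start sites in the RefSeq annotation of the GRCr8 assembly, and the promoter window of the downstream one, 250 bases before to 50 after the start, is shown because Selenop is the member with the largest difference. It runs over chr2:54225662-54225961 on the plus strand. Capitals mark a FoxO site (GTAAACA), at position -43 from the start, and a TATA box (TATAAA), at -29.
Selenop, downstream start: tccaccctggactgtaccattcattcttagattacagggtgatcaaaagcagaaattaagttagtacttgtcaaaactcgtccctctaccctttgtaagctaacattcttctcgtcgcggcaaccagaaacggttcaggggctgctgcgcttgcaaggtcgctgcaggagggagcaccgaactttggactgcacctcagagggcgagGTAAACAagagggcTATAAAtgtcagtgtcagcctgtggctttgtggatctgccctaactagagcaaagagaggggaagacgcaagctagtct
The motifs were chosen after this window had been read, and were searched on both strands of all windows of this length. GTAAACA was present in 3.78% of the 33469 RefSeq promoter windows and TATAAA in 14.2%. Among the 11 windows of the 10 members, GTAAACA was found in 1 (that of Selenop) and TATAAA in 3 (Selenop, Selenow and Selenot). A match describes the letters and does not show that a factor binds.

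Over the 12 arrays, the genes whose normalized log2 values were most like those of Selenop 1368806_at, among 8674 genes averaging 100 or more in signal, were Lgals4, Lgals2, Creb3l1 and Tmbim4 (Pearson r of 0.997 each) and C9 (0.996). Lgals4 and Lgals2 are galectins, Creb3l1 is an ER-anchored transcription factor, Tmbim4 is a membrane protein of the Golgi and C9 is the last component of complement. All share the large step between the lines, which makes up most of such a correlation. With each line's mean removed, r was 0.81 for Lgals4, 0.82 for Lgals2, 0.74 for Creb3l1, 0.75 for Tmbim4 and 0.81 for C9. The genes had been picked by their r over these same arrays, which favours genes that also vary alike within the lines. This second r was not taken for genes that were not picked. Since the 12 arrays are shared by all genes, these are descriptions of likeness on these arrays. C9, with a signal of 152 ± 17.2 in RS cells and 3607 ± 239.9 in RR cells (SD, n = 6 each), is also a neighbour of Selenop on its chromosome.

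**Figure D3:**
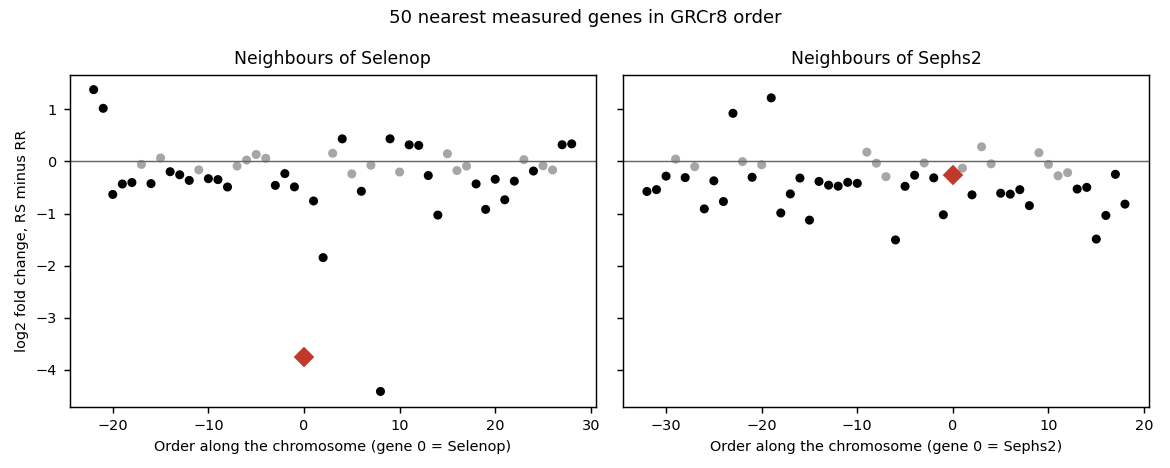
Log2 fold change (y axis, CRI-G1-RS minus CRI-G1-RR) of the 50 nearest genes averaging 100 or more in signal by their order along the chromosome (x axis), for Selenop (left) and Sephs2 (right), each marked by a red diamond. Black points are called genes and grey points are not. Of the genes around Selenop 25 are lower and 8 higher in RS cells, and C9 lies at -4.41, and of those around Sephs2 33 are lower and 2 higher.

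The surroundings of the members on GRCr8 were examined after their values were known. Of 8657 placed genes averaging 100 or more in signal, 53.9% were called, 28.6% higher and 25.3% lower in RS cells, and their median log2 fold change was 0.03. Of the 50 such genes nearest to Selenop, 8 were higher and 25 lower, with a median of -0.20. The nearest, Ghr, the growth hormone receptor, stood at -0.76 (limma adjusted p = 1.85e-06), and the next, Fbxo4, a substrate adaptor of a ubiquitin ligase, at -1.85 (limma adjusted p = 3.75e-09). C9 was number 12 in that order, at -4.41 (limma adjusted p = 8.88e-13). Around Sephs2 only 2 of 50 genes were higher and 33 were lower, with a median of -0.38. Dctpp1, a nucleotide pyrophosphatase and the nearest of these genes to Sephs2, stood at -1.02 on the log2 scale (limma adjusted p = 1.47e-07).

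Around Selenos the balance ran the other way, with 23 of 50 genes higher and 3 lower (median 0.19), and around Selenot 21 were higher and 7 lower (median 0.16). For the other 6 members the medians of the surrounding genes lay between -0.08 for Selenok and 0.09 for Selenow, Selenom and Selenof. Neighbouring genes are not independent, and Selenop, Selenot and Selenof share chromosome 2, as Selenow, Selenos and Sephs2 share chromosome 1.

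Sephs2, which makes selenophosphate, was lower in RS cells by a modest amount. Its signals were 603, 680.5 and 756 on RS arrays, against 692, 819.5 and 894 on RR arrays. The 3 highest RS arrays overlapped the lower RR arrays. The means were 674 ± 60.2 in RS cells and 809 ± 84.5 in RR cells (SD, n = 6 each), and the log2 fold change was -0.26 (standard error 0.08, 95% interval -0.44 to -0.09). The call was lost without RS replicate 3 or without RR replicate 4, 5 or 6. In both lines the arrays numbered 4 to 6 had higher Sephs2 signals than those numbered 1 to 3. The labels give no batch for these numbers.

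Secisbp2, which binds the stem-loop of selenoprotein mRNAs, had signals of 269.7, 307 and 321 on RS arrays, against 267, 292 and 312 on RR arrays. The lines overlapped almost fully. The log2 fold change was 0.04, and its 95% interval, -0.10 to 0.17, covers small changes of this probe set in either direction.

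The other genes of selenium supply and selenocysteine synthesis came from a list of 13, all of them measured, of which 1 was higher and 4 were lower in RS cells (38.5% called, beside 39.2% of all genes). Scly, which frees selenium from selenocysteine for reuse, had signals of 164, 178 and 196 on RS arrays, against 583, 628 and 711 on RR arrays. The lines were widely apart, with a log2 fold change of -1.74 (standard error 0.06, limma adjusted p = 9.77e-10). Pstk, the kinase that primes the tRNA for selenium, averaged 207 ± 10.5 in RS cells and 384 ± 21.1 in RR cells (SD, n = 6 each), a log2 fold change of -0.85 (limma adjusted p = 1.56e-07). Sepsecs, the synthase that follows Pstk, showed a log2 fold change of 0.03 with a wide 95% interval of -0.50 to 0.56 (limma adjusted p = 0.946). Eefsec, the elongation factor, stood at -0.04 (limma adjusted p = 0.762).

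Eif4a3, an RNA helicase known to bind selenoprotein mRNAs as well as exon junctions, rose to 2243 ± 70 in RS cells, against 2024 ± 101 in RR cells (SD, n = 6 each), a log2 fold change of 0.19 (limma adjusted p = 0.00756). With deposited scaling alone its adjusted p was 0.194. The values of the next genes were chosen for mention after they were seen. Secisbp2l, a relative of Secisbp2, fell to 329 ± 27 in RS cells, against 452 ± 46.5 in RR cells (SD, n = 6 each), with a log2 fold change of -0.45 (limma adjusted p = 5.35e-04), while its dimmer probe set gave -0.14 (limma adjusted p = 0.560). Selenbp1, a selenium-binding protein, also had -0.45 (limma adjusted p = 5.48e-04). For Sephs1, a relative of Sephs2 without selenocysteine, 5 probe sets gave log2 fold changes between -0.81 and 0.15, and the one with the highest signal gave -0.11 (limma adjusted p = 0.371). The probe sets at -0.81 (limma adjusted p = 3.65e-06) and -0.41 (limma adjusted p = 0.00166) were called lower, and none was called higher.

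**Figure D4:**
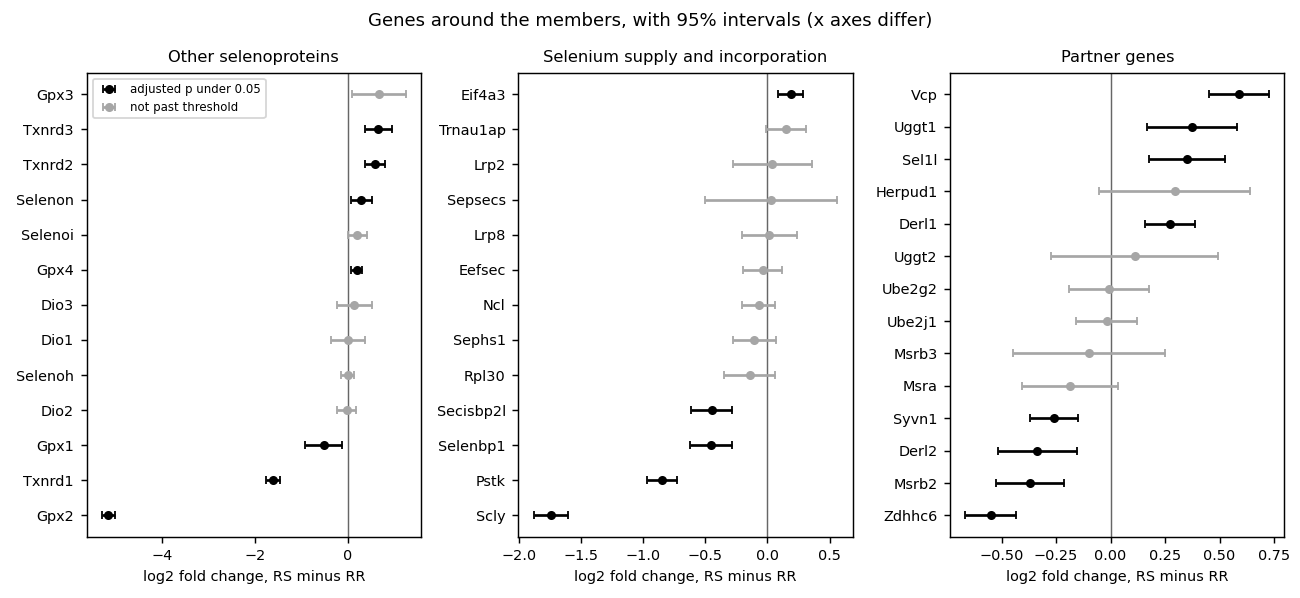
Log2 fold change (x axis, CRI-G1-RS minus CRI-G1-RR, scales differ between panels) with 95% interval of the other selenoproteins, of genes of selenium supply and incorporation, and of partner genes of the members, 1 probe set per gene. Black marks an adjusted p under 0.05 and grey one above it. Scly (-1.74) and Pstk (-0.85) stand lowest in the middle panel, and Vcp (0.59) highest and Zdhhc6 (-0.55) lowest in the right panel.

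Of the other selenoproteins, 13 of 15 listed were measured, 4 of them higher and 3 lower in RS cells (53.8% called, beside 39.2% of all genes). Gpx2 had a log2 fold change of -5.17 (limma adjusted p = 4.79e-14) and Txnrd1 one of -1.62 (limma adjusted p = 5.74e-09), while Txnrd3 had 0.65 (limma adjusted p = 0.00224) and Txnrd2 0.59 (limma adjusted p = 4.94e-04). Selenon, an ER membrane selenoprotein that regulates calcium uptake, averaged 604 ± 94.9 in RS cells and 484 ± 40.5 in RR cells (SD, n = 6 each), a log2 fold change of 0.29 (limma adjusted p = 0.0446). This call was lost in 11 of 19 alternative settings, and a dim Selenon probe set gave -0.05 (limma adjusted p = 0.886). Gpx4, which removes lipid peroxides, had 0.19 (limma adjusted p = 0.0208), and with deposited scaling alone its adjusted p was 0.193, while a dimmer Gpx4 probe set gave -0.38 (limma adjusted p = 0.0702). Gpx1, at a signal of at most 32.5 on any array, had -0.52 (limma adjusted p = 0.046), and lost its call in 11 of 18 settings. Over both lists, 12 of 26 genes were called, 5 higher and 7 lower (46.2%, beside 39.2% of all genes), and the median log2 fold change was 0.00. With deposited scaling alone the split was 2 higher and 7 lower.

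Among the ER members, Selenos had the largest positive difference. Selenos (VIMP) is a membrane protein that tethers the ATPase Vcp to the channel through which misfolded proteins leave the ER. Its signals were 1329, 1516 and 1649.9 on RS arrays, against 804, 945 and 1131 on RR arrays. The lowest RS array lay above the highest RR array. The means were 1499 ± 109 in RS cells and 949 ± 112 in RR cells (SD, n = 6 each), a ratio of 1.58, and the log2 fold change was 0.66 (standard error 0.09, 95% interval 0.47 to 0.84).

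Selenok, a small ER membrane protein that also binds Vcp and acts with the palmitoyltransferase Zdhhc6, had signals of 3068, 3229.8 and 3394 on RS arrays, against 2603, 2942 and 3071 on RR arrays. The lines touched, since the lowest RS array (3068) lay just under the highest RR array (3071). The log2 fold change was 0.20 (standard error 0.06), with means of 3222 ± 132 in RS cells and 2905 ± 162 in RR cells (SD, n = 6 each). The call was lost with deposited scaling alone, where the log2 fold change was 0.13, and without RS replicate 3.

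The promoter windows of Selenos and Selenok are shown side by side because both proteins act with Vcp and both were higher in RS cells. The Selenos window is chr1:129069990-129070289 and the Selenok window chr16:5158351-5158650, both on the plus strand of GRCr8. Capitals mark the core of the antioxidant response element, TGACNNNGC, to which the transcription factor Nrf2 binds.
Selenos: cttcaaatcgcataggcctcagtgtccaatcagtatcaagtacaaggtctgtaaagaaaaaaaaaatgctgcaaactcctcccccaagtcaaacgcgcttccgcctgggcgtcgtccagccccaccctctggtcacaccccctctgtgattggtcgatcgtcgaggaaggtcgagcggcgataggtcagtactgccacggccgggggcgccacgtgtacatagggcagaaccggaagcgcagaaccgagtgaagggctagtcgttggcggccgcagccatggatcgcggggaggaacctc
Selenok: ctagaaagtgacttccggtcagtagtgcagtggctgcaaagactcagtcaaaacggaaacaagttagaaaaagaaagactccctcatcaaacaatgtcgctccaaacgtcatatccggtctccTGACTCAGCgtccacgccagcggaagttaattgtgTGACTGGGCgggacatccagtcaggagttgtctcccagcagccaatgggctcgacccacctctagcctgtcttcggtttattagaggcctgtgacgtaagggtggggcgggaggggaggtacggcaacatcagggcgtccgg
Selenok held this core at -127 and at -92 from the start (TGACTCAGC and TGACTGGGC), and it was the only one of the 11 windows with a match. Of all 33469 windows 12.1% held it. Selenos held none of the motifs searched, and the ER stress element, searched likewise on both strands, was found in none of the 11 windows and in 0.0657% of all windows.

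The partner genes of these members were 16 listed genes, of which 14 were measured, 4 of them higher and 4 lower in RS cells. Thus 57.1% were called, beside 39.2% of all genes and 53.9% of placed genes averaging 100 or more in signal. Vcp, the ATPase that pulls proteins out of the ER, had signals of 2236, 2268 and 2348 on RS arrays, against 1383, 1532 and 1684 on RR arrays. Its arrays were fully apart, and the log2 fold change was 0.59 (standard error 0.06, limma adjusted p = 1.08e-05). Derl1, a component of the exit channel that binds Selenos, had 0.27 (limma adjusted p = 0.00121), with 0.48 and 0.04 from its other probe sets, and Sel1l, an adaptor of the ubiquitin ligase there, 0.35 (limma adjusted p = 0.00448).

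Other parts of the same machinery were lower in RS cells. Derl2, a relative of Derl1, had a log2 fold change of -0.34 (limma adjusted p = 0.00702), and Syvn1, the ubiquitin ligase that works with Sel1l, -0.26 (limma adjusted p = 0.00161). Herpud1 was not called, at 0.29 (limma adjusted p = 0.197). Of the 8 measured retrotranslocation genes, 3 were higher and 2 lower (62.5% called, beside 39.2% of all genes, 21% higher and 18.3% lower). All 8 averaged over 100 in signal, and of placed genes averaging 100 or more 53.9% were called. Zdhhc6, the partner of Selenok, fell to 1031 ± 48.5 in RS cells, against 1519 ± 83.3 in RR cells (SD, n = 6 each), a log2 fold change of -0.55 (limma adjusted p = 4.92e-06). Selenok and its enzyme partner thus had log2 fold changes of opposite sign.

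Selenot, a thioredoxin-like ER membrane protein linked to calcium and hormone secretion in neuroendocrine cells, gave unlike values from its 2 probe sets. With 1373508_at the signals were 1343, 1489 and 1698 on RS arrays, against 994, 1127 and 1305 on RR arrays, and the lines did not overlap. That probe set averaged 1507 ± 117 in RS cells and 1137 ± 101 in RR cells (SD, n = 6 each), with a log2 fold change of 0.41 (standard error 0.08, 95% interval 0.24 to 0.57). With 1398964_at the signals were 3679.8, 3822 and 4069 on RS arrays, against 3845, 4045 and 4467 on RR arrays, and the lines overlapped. There the log2 fold change was -0.01 (standard error 0.06, 95% interval -0.13 to 0.11), and -0.11 with deposited scaling alone. Over the 12 arrays both Selenot probe sets had a Pearson correlation of -0.19, so the higher Selenot signal rests on 1 of them.

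Selenom and Selenof are related proteins of the ER lumen with a thioredoxin-like fold, and they moved in opposite directions. Selenom had signals of 2294, 2482 and 2890.4 on RS arrays, against 1799.9, 2162 and 2551 on RR arrays. The lines overlapped, because RR replicate 3 (2551) lay among the RS arrays. The log2 fold change was 0.29 (standard error 0.09, 95% interval 0.10 to 0.48), and with deposited scaling alone it was 0.23 and no longer called.

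Selenof, which binds the glucosyltransferase that checks the folding of glycoproteins, had signals of 3355, 3554 and 3974 on RS arrays, against 4582, 4705 and 4962 on RR arrays. Every RS array lay below every RR array. The means were 3594 ± 239.6 in RS cells and 4732 ± 136 in RR cells (SD, n = 6 each), the RR mean being 1.32 times the RS mean, and the log2 fold change was -0.34 (standard error 0.05, 95% interval -0.45 to -0.23). Uggt1, the glucosyltransferase that Selenof binds, had a log2 fold change of opposite sign, 0.37, with 149 ± 16 in RS cells and 110.1 ± 14.2 in RR cells (SD, n = 6 each; limma adjusted p = 0.00827). Its paralogue Uggt2 was not called (0.11, limma adjusted p = 0.708). The Uggt2 signal was at most 17.2 on any array, close to the added 16, so this scale can show little for it.

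The remaining members act in redox reactions of the cytosol and nucleus. Msrb1 reduces oxidized methionine in proteins, actin among them. Its signals were 432, 439 and 458 on RS arrays, against 375, 393 and 429.9 on RR arrays. The lines were separate by a narrow margin, since the highest RR array (429.9) lay just under the lowest RS array (432). The means were 442 ± 11.2 in RS cells and 398 ± 19.2 in RR cells (SD, n = 6 each), and the log2 fold change was 0.14 (standard error 0.05, 95% interval 0.03 to 0.25). The call held in only 6 of 18 alternative settings. It also held where only probe sets averaging 50 or more in signal were fitted, a setting not among these 18. Of the other methionine sulfoxide reductases, mitochondrial Msrb2 fell to 264 ± 16.1 in RS cells, against 344 ± 30.6 in RR cells (SD, n = 6 each), a log2 fold change of -0.37 (limma adjusted p = 0.00132). Msra (-0.18, limma adjusted p = 0.204) and Msrb3 (-0.10, limma adjusted p = 0.714) were not called.

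Selenow, a small cytosolic thioredoxin-like selenoprotein that is abundant in muscle and brain, had signals of 118, 145 and 162 on RS arrays, against 131, 134 and 161 on RR arrays. The lines overlapped. The highest RR array was replicate 1, far above the other RR arrays (131 to 137). The log2 fold change was 0.03 (standard error 0.07, 95% interval -0.12 to 0.18).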

How the data were processed

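Total RNA from 6 passages of CRI-G1-RS and 6 of CRI-G1-RR was amplified and labelled with biotin. The labelled product was hybridized to 12 arrays, 1 per sample. The deposited values are linear signal intensities per probe set. GCOS 1.4 is the software in the submitters' processing notes, and trimmed means were equal on all arrays. The Methods of the study name robust multi-chip averaging in log2 units, which these values are not, so the setting planned for linear values was used. Signals were quantile normalized between arrays and taken as log2(signal + 16). They were fitted by limma (3.58.1, R 4.3.3) with cell line as the only term and Benjamini-Hochberg adjustment over all 31099 probe sets at 0.05. No filter on low signal was used. Symbols come from the platform annotation, with 1 symbol for 20832 probe sets, several for 436 and none for 9831.

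The members and gene lists were chosen with earlier results of these data known. Named were all member probe sets, up to 4 called genes per list and direction, and the 5 genes most like the member of largest change. Other lists use the probe set of highest mean signal per gene. Derl3, Selenoo, Selenov and Pcsk1 had no probe set with a single symbol. The study describes the replicates of each line as independent, and p-values measure the spread between these passages of 1 clone and 1 subclone. Arrays give no counts, and their number limits the precision. Alternatives were deposited scaling alone, pseudocounts of 1 and 64, a minimum mean signal of 50, an intensity trend, array weights, the replicate number as a block, other probe set choices and leaving out each array. Promoter windows are those of RefSeq for GRCr8, matched by symbol for 10 of 10 members.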

Additional observations from a re-analysis of the deposited data

Results flagged for a closer look

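Of 104 groups of 6 arrays screened, 5 held an array whose distance from its nearest neighbour took up most of the range of its group (Dixon's test at 95%). Chance alone marks about 1 group in 20. Selenow was at 161 on RR replicate 1, where the other RR arrays lay between 131 and 137. Trnau1ap, a factor that binds the selenocysteine tRNA, was at 1051 on RS replicate 4, where the other RS arrays lay between 1257 and 1342. Derl2 was at 409 on RR replicate 3, the other RR arrays lying between 315 and 334, and Syvn1 at 889 on RS replicate 6, the other RS arrays lying between 797 and 823. Ube2j1, a ubiquitin-conjugating enzyme of the ER, was at 155 on RR replicate 4, where the others lay between 189 and 206.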

How the results depend on the processing

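With the probe set kept, no called log2 fold change changed sign in the settings tried for it. Another probe set of the same gene, itself not called, had the opposite sign for some called values. These were Selenop (0.06), Selenot (-0.01), Selenon (-0.05), Gpx4 (-0.38) and Sephs1 (0.15). Selenop (1368806_at), Selenos, Selenof and Selenot (1373508_at) passed the threshold in all of 18 settings, Selenom in 17, Selenok in 16, Sephs2 in 14 and Msrb1 in 6. These 18 leave out the minimum mean signal of 50, at which each of these members was also called. With deposited scaling alone, called members higher in RS cells numbered 2 (Selenok, Selenom and Msrb1 were lost) and other selenium genes higher 2, and the cause was not tested. Leaving out 1 array at a time gave 3 to 5 members higher, the fewest without RS replicate 3, and 2 to 3 lower. It gave 4 to 7 other selenium genes higher and 6 to 7 lower, 4 partner genes higher and 4 to 5 lower, and a median member log2 fold change of 0.02 to 0.09. Over the whole array it gave 4705 to 5199 probe sets higher and 4419 to 4811 lower. The log2 fold change of Selenop was -3.45 with a pseudocount of 64 and -3.88 with 1. With the replicate number as a block, 4 members were higher and 3 lower, Msrb1 being lost, and 4730 probe sets were higher and 4474 lower. Samples of the same number did not deviate together (correlation -0.06 to 0.08, and 1 of 6 RS and 2 of 6 RR samples matched best with their own number), so no shared deviation by number was seen, which does not show whether the number marks the pairs. Dim probe sets such as Selenop 1387339_at and Gpx1 lie near the added 16, which limits what they can show.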
